A study of Homo sapiens with 5 samples.

Results

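Most of the genes described here act in the repair of double-strand breaks and of crosslinks between DNA strands. All were chosen by symbol, taking names that begin with FANC, RAD5, XRCC, BRCA, SLX, EME, SMC5 or SMC6. A list of full names, such as MRE11, NBN, MUS81 and UBE2T, was added. Of the 14812 genes tested, 37 matched, 23 by the start of the symbol and 14 by full name. No BRCA gene was among the 37, and FANCD2OS was the only FANC symbol. RAD54L2, FANCD2OS and SMC5-DT matched in name only and are counted among the 37 repair genes below. Transcripts were measured on arrays of LNCaP, an established androgen-sensitive human prostate cancer cell line, with 2 arrays of shControl cells and 3 of shRB cells. Retrovirus carried the hairpins, a scrambled one in shControl and one against RB1, the retinoblastoma gene, in shRB, and puromycin selected the cells. All cells of both groups received 10 Gy of ionizing radiation and gave RNA 24 h later, so unirradiated cells are not part of the comparison. Whether the arrays within a group represent separate cultures is not stated in the labels. The p-values measure the spread between these arrays alone, and that spread may be technical.

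A broken chromosome is first bound by the MRE11-RAD50-NBN complex, which activates checkpoint kinases and begins to trim the ends. Trimmed ends can be repaired by homologous recombination, which copies an intact sister, whereas untrimmed ends are held by the Ku heterodimer and rejoined directly. In the Fanconi anaemia pathway, UBE2T is the ubiquitin-conjugating enzyme, and nucleases assembled on SLX4 can cut crosslinks out. RB1 restrains E2F transcription factors, and several recombination genes are known E2F targets.

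Of the 37 repair genes, 0 passed limma's test at an adjusted p under 0.05 (Benjamini-Hochberg over all genes), in an experiment where 1.07% of all genes tested did, 0.695% higher and 0.378% lower in shRB. At an unadjusted limma p under 0.05, 8 of the 37 stood out, 5 higher and 3 lower in shRB. That is 21.6% of the repair genes beside 18.1% of all genes, so the share lies near the background. The higher 5 were UBE2T, MRE11, SLX4IP, SFR1 and RAD51B, and the lower 3 were NBN, RAD54L2 and MUS81. The median log2 difference of the 37, shRB minus shControl, was -0.03, beside 0.02 over all genes, with 17 positive (45.9%, beside 53.8% of all genes) and 20 negative values. Without shRB replicate 1, 2 or 3, the count of 8 was 5, 4 and 3. The shares of all genes at this p in those fits are not given here. The number of all genes past the adjusted threshold also fell, from 159 to 28 without shRB replicate 1.

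**Figure D1:**
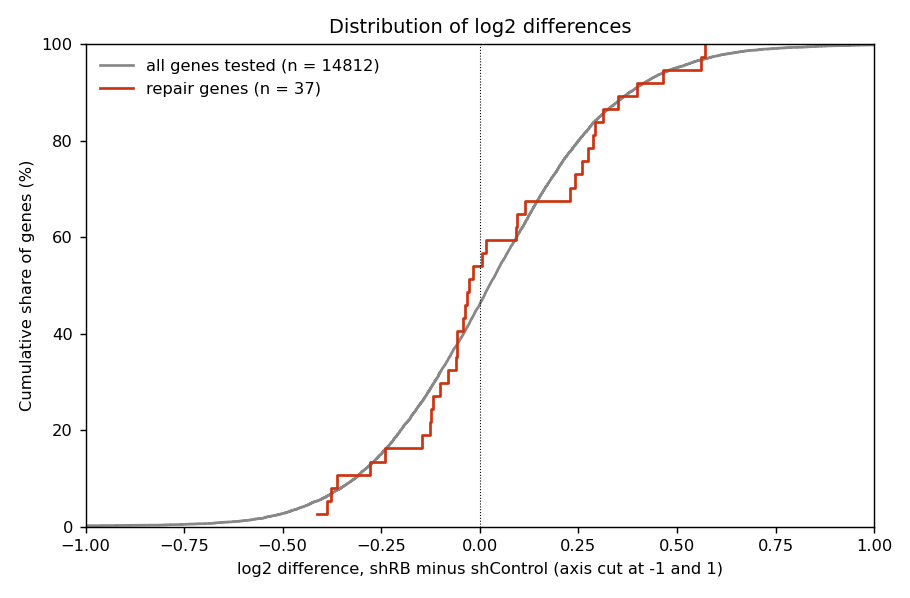
Cumulative share of genes (vertical axis, %) against the log2 difference of shRB minus shControl (horizontal axis), for the 37 repair genes and for all 14812 genes tested. The medians lie at -0.03 and 0.02, and the repair genes span -0.41 to 0.57.

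Promoters are shown for UBE2T, MRE11 and SLX4IP, which had the smallest p-values, and for GEN1. The GEN1 promoter overlaps that of SMC6, and both hold the same E2F word. The sequences are from RefSeq on GRCh38.p14, run from 250 bases before to 50 bases after the gene start, and are written 5′ to 3′ on the strand of the gene. They lie at chr1:202341887-202342186 on the minus strand for UBE2T, chr11:94493795-94494094 on the minus strand for MRE11, chr20:10435055-10435354 on the plus strand for SLX4IP and chr2:17753619-17753918 on the plus strand for GEN1. Capitals mark, on either strand, the E2F words TTTCCCGC, TTTCGCGC, TTTGCCGC and TTTGGCGC, the cell cycle homology region word TTTGAA and the CCAAT box.
UBE2T: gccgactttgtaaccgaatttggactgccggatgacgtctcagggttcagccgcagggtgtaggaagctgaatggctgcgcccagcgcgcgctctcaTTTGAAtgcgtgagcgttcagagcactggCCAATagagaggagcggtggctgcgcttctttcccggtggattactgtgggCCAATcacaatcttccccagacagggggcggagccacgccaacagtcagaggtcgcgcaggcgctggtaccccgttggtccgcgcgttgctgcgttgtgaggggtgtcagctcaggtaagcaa
MRE11: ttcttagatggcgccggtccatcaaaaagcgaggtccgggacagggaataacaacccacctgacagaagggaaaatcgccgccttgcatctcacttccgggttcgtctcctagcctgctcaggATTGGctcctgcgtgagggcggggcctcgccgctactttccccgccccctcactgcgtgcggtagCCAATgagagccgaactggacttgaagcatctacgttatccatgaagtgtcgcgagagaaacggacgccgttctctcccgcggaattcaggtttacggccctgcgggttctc
SLX4IP: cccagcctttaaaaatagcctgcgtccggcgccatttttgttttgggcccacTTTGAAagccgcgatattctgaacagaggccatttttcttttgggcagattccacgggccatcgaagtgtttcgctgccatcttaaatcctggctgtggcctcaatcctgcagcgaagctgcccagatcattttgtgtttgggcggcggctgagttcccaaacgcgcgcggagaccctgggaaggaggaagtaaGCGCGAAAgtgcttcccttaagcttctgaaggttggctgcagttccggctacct
GEN1: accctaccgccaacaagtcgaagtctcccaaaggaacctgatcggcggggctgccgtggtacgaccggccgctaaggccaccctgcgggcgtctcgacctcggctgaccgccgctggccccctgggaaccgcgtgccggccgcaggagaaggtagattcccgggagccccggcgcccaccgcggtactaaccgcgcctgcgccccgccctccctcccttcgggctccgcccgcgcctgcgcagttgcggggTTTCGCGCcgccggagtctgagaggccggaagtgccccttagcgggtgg

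Of the 37 genes, 33 had an entry in the promoter table, and FANCD2OS, NBN, RAD54B and XRCC5 had none. An E2F word was found in 6 of the 33 (18.2%), beside 4.5% of the promoters of 10736 tested genes and 3.33% of all 27305 promoters. The 6 were EXO1, GEN1, SLX4IP, SMC6, XRCC2 and XRCC6, and GEN1 and SMC6 start 59 bases apart on opposite strands, so their single match is the same site. The TTTGAA word was found in 7 of the 33 (21.2%, beside 11.8% of tested genes), and a CCAAT box in 16 (48.5%, beside 36.0%). UBE2T and MRE11 each hold 2 CCAAT boxes and no E2F word in this window. Among the 6 genes with an E2F word, 3 differences were positive and 3 negative, with a median of 0.10 and a range of -0.08 to 0.47. The 27 repair genes without one had a median of 0.01, while tested genes with and without the word had medians of 0.03 and 0.02. A match describes the letters only, and binding of a factor was not measured.

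UBE2T, the ubiquitin-conjugating enzyme of the Fanconi pathway, had log2 intensities of 8.10 and 8.19 in shControl and 8.68, 8.60 and 8.88 in shRB. All 3 shRB arrays lay above the shControl pair. Means were 8.15 ± 0.06 (SD, n = 2) in shControl and 8.72 ± 0.14 (SD, n = 3) in shRB. The log2 difference was 0.57 (SE 0.15, 95% interval 0.24 to 0.91), or 1.49-fold, with a limma adjusted p of 0.0967. RB1 itself, the target of the hairpin, had a difference of -0.54 at the same adjusted p, from 5.76 to 5.21. By p, RB1 ranked 467 and UBE2T 470 among the 14812 genes. UBE2T passed in 2 of 15 alternative fits. Its limma adjusted p was 0.0489 when genes below the median gene were left out, a filter chosen after seeing the data. With an intensity trend and robust variances it was 0.0137, and with the replicate number as a block it was 0.337. The FANC genes of the core complex, the ligase that UBE2T serves, are not analysed here.

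MRE11, the nuclease of the break-sensing complex, had log2 intensities of 5.96 and 6.07 in shControl and 6.48, 6.74 and 6.52 in shRB, again without overlap. The difference was 0.56 (SE 0.15, 95% interval 0.23 to 0.90, limma adjusted p = 0.0999), or 1.48-fold. MRE11 passed in 1 of 15 alternative fits, at an adjusted p of 0.0499 with genes below the median gene left out. That filter was chosen after seeing the data, and in other alternative fits the limma adjusted p reached 0.301. RAD50, the ATPase that holds the ends together, had 7.36 and 7.28 in shControl and 7.58, 7.68 and 7.64 in shRB. Its arrays did not overlap either, and the difference was 0.31 (SE 0.14, 95% interval -0.0028 to 0.63, limma adjusted p = 0.279).

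NBN, which links the same complex to the kinase ATM, lay on the other side. It had log2 intensities of 8.62 and 8.76 in shControl against 8.42, 8.25 and 8.27 in shRB, so every shRB array was lower. The difference was -0.38 (SE 0.15, 95% interval -0.70 to -0.05, limma adjusted p = 0.213). Within this complex, MRE11 and RAD50 were thus higher and NBN lower on every shRB array, with no subunit past the threshold and with 36.0% of all genes also free of overlap. TP53BP1 and RIF1, which shield ends from trimming, had differences of -0.10 and -0.04 (limma adjusted p = 0.78 and 0.915) and overlapping arrays.

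**Figure D2:**
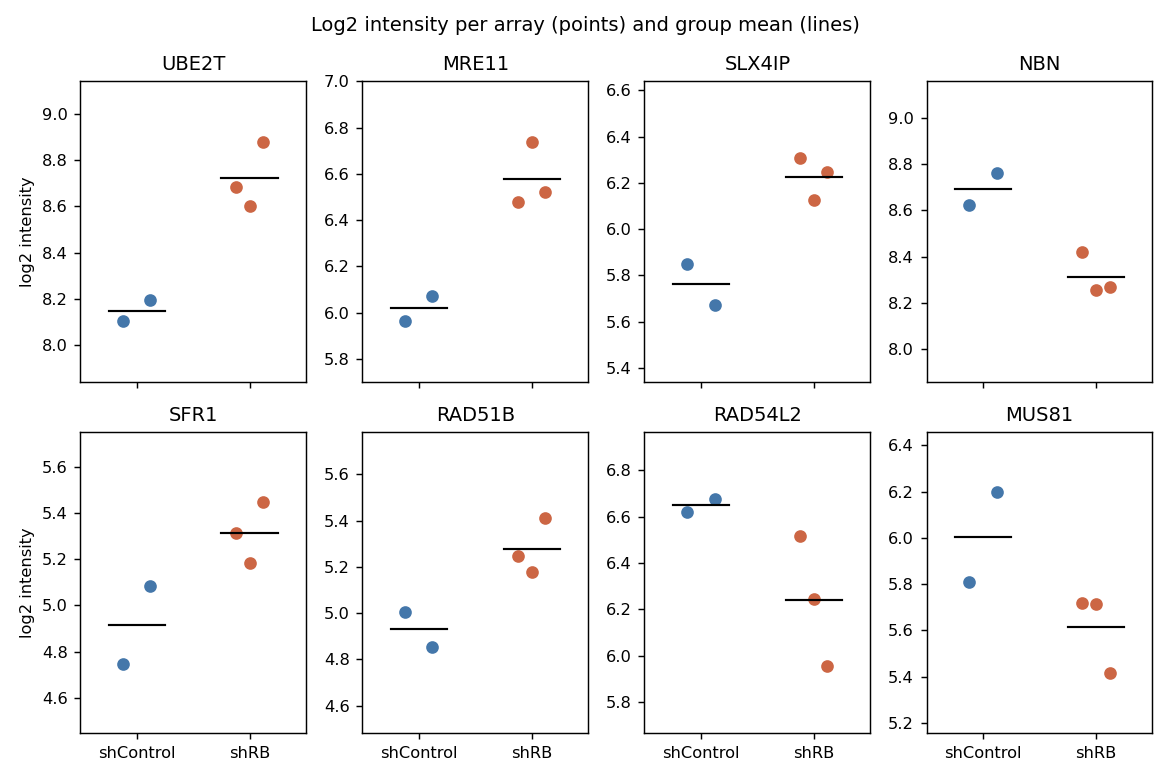
Log2 intensity (vertical axes, each spanning the same width) in each array for the 8 repair genes with an unadjusted limma p under 0.05. Points are arrays (2 shControl, 3 shRB) and lines are group means. The groups do not overlap in any panel, and the shControl arrays of MUS81 and SFR1 lie farthest apart, by 0.39 and 0.33.

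Of 13 genes of homologous recombination, 9 had positive differences, beside 53.8% of all genes, and the median was 0.09, beside 0.02. The 9 include RAD51AP2, near the lowest deposited level, and RAD52 and RAD51AP1, at 0.02 and 0.01. Among the 9, RAD51AP1, RAD52, SWI5 and XRCC2 had another sign in at least 1 alternative fit. SFR1, which forms a recombination complex with SWI5, had log2 intensities of 4.75 and 5.08 in shControl and 5.31, 5.18 and 5.45 in shRB. The groups did not overlap, but the nearest arrays of the groups lay closer together than the shControl arrays did. The difference was 0.40 (SE 0.16, 95% interval 0.04 to 0.76, limma adjusted p = 0.229). Its partner SWI5 stood at 0.09 (limma adjusted p = 0.791).

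RAD51B, a recombination factor, had log2 intensities of 5.01 and 4.85 in shControl and 5.25, 5.18 and 5.41 in shRB. The arrays did not overlap, and the difference was 0.35 (SE 0.15, 95% interval 0.02 to 0.68, limma adjusted p = 0.254). Other genes of this step stood on both sides of 0. XRCC2 stood at 0.23, RAD51C at -0.15 and XRCC3 at -0.36, all with overlapping arrays (limma adjusted p = 0.534, 0.656 and 0.349). The XRCC3 value rests on shControl replicate 1 at 6.05, since shControl replicate 2 at 5.40 lies among the shRB arrays, 5.27 to 5.50. Without replicate 1 the difference was -0.04, and without replicate 2 it was -0.68 (limma adjusted p = 0.915 and 0.0804). The XRCC2 value depended on the same arrays, at -0.04 without shControl replicate 1 and 0.50 without shControl replicate 2.

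RAD54L, a DNA translocase, had 4.84 and 4.91 in shControl and 5.10, 5.06 and 5.28 in shRB, a difference of 0.27 without overlap (limma adjusted p = 0.36). BARD1, a ubiquitin ligase subunit in the recombination machinery, had 8.39 and 8.47 in shControl and 8.26, 8.21 and 7.98 in shRB. Its difference was -0.28, also without overlap (limma adjusted p = 0.364). PALB2, the scaffold that recruits recombination mediators, stood at 0.24 (limma adjusted p = 0.483) with overlap. The rest of this group, RAD51AP2, RAD52, RAD51AP1 and RAD54B, lay between -0.12 and 0.11. RAD51AP2 sat at the lowest deposited level, 4 on the log2 scale, on 3 of the 5 arrays and at most 4.27 on the others, so its level is not shown to be above background.

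In the nuclease group, 4 differences were positive and 4 negative. SLX4IP, which binds the nuclease scaffold SLX4, had log2 intensities of 5.85 and 5.67 in shControl and 6.31, 6.13 and 6.25 in shRB, with no overlap. The difference was 0.47 (SE 0.15, 95% interval 0.14 to 0.79, limma adjusted p = 0.144). SLX4 had 5.39 and 5.28 in shControl and 5.61, 5.63 and 5.54 in shRB, a difference of 0.26 without overlap (limma adjusted p = 0.369). GEN1, a resolvase of crossed DNA strands, had 4.77 and 4.38 in shControl and 4.80, 4.88 and 4.90 in shRB. Its difference was 0.29 (limma adjusted p = 0.375), and the lowest shRB array lay just above the higher shControl array. Without shControl replicate 1 the GEN1 difference was 0.48, and without shControl replicate 2 it was 0.09.

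MUS81, the catalytic subunit of a flap and junction nuclease, had log2 intensities of 5.81 and 6.20 in shControl and 5.72, 5.71 and 5.42 in shRB. The groups did not overlap, but the difference of -0.39 (SE 0.17, 95% interval -0.77 to -0.01, limma adjusted p = 0.268) was no larger than the gap of 0.39 between the shControl arrays. Its alternative partners EME1 and EME2 stood at 0.29 and -0.12 with overlapping arrays (limma adjusted p = 0.423 and 0.774). The EME1 value rests on shControl replicate 2, since it was 0.02 without that array and 0.57 without shControl replicate 1. EME1 was read by 2 probe sets, and the dimmer one gave 0.09. SMC5 and SMC6, the arms of a chromosome-bound complex, stood at -0.03 and -0.06.

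The 5 genes grouped under end joining, XRCC1 among them, differed by a median of -0.08, with 1 value positive and 4 negative. Over all genes the median was 0.02, with 53.8% positive. XRCC5, a Ku subunit, had log2 intensities of 10.24 and 10.12 in shControl and 10.05, 9.99 and 9.77 in shRB. All shRB arrays were lower, and the difference was -0.24 (SE 0.15, 95% interval -0.58 to 0.10, limma adjusted p = 0.44). XRCC6, its partner in the heterodimer, stood at -0.08 with overlap. XRCC1, a scaffold of single-strand break repair, stood at -0.13, the ligase scaffold XRCC4 at -0.02 and the end-processing nuclease DCLRE1C at 0.09. The limma adjusted p-values of these last 4 genes lay between 0.733 and 0.97. Of the resection and helicase genes, the exonuclease EXO1 (-0.03) and the helicase BRIP1 (-0.06) had overlapping arrays.

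Among the 37, 3 matched the symbols but were given none of the repair roles used to group the genes here. RAD54L2, a helicase-like protein that interacts with the androgen receptor, had 6.62 and 6.68 in shControl and 6.52, 6.24 and 5.95 in shRB. The groups did not overlap, and the difference was -0.41 (SE 0.18, 95% interval -0.80 to -0.02, limma adjusted p = 0.254). FANCD2OS and the divergent noncoding transcript SMC5-DT stood at -0.04 and -0.06.

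**Figure D3:**
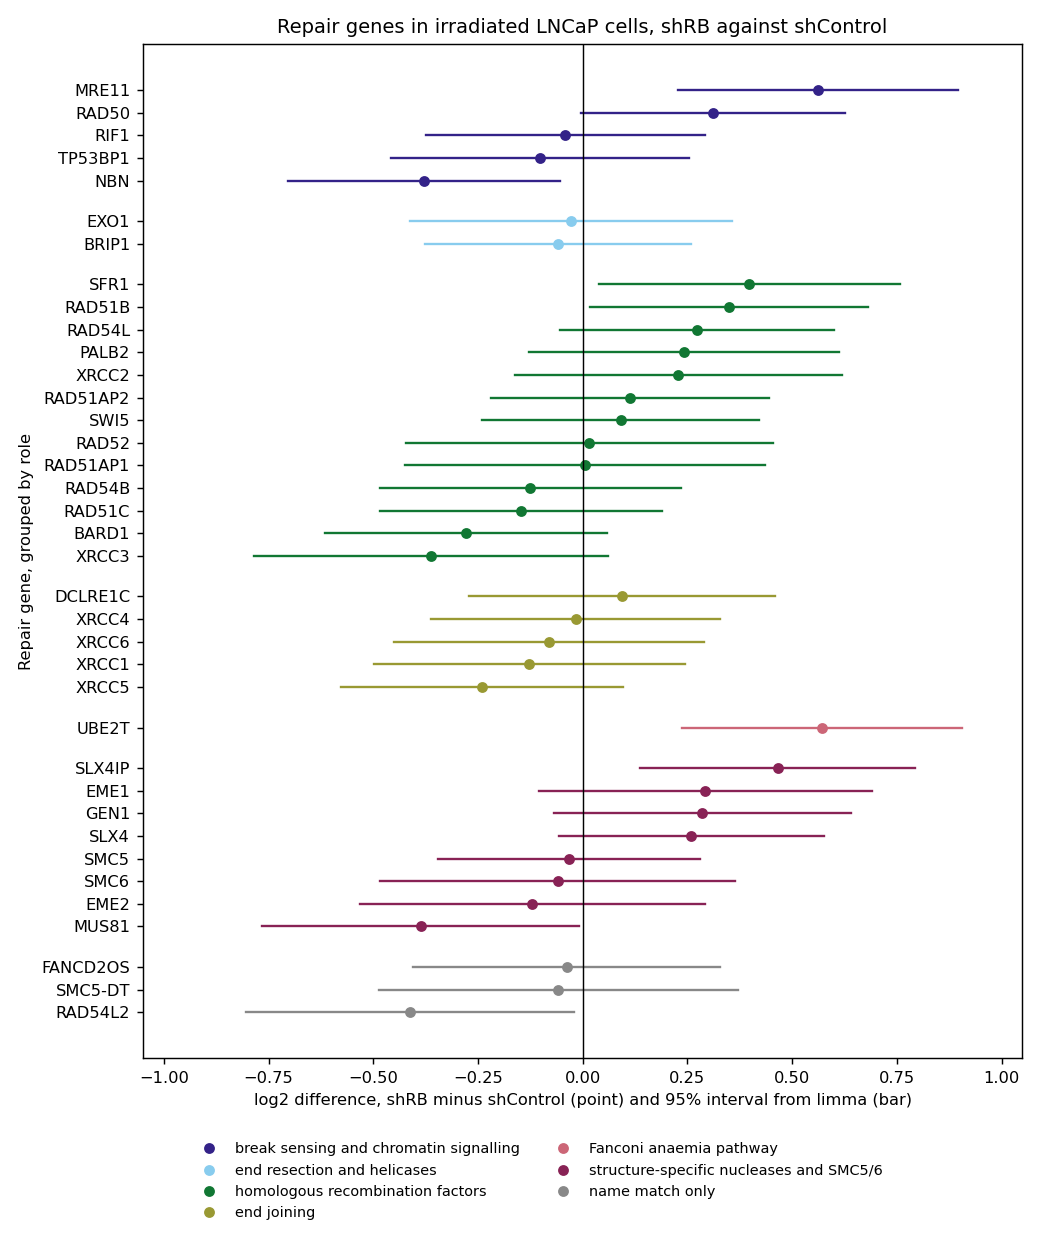
Log2 difference of shRB minus shControl (points, horizontal axis) with its 95% interval from limma (bars) for each of the 37 repair genes, grouped by role. The intervals of UBE2T, MRE11, SLX4IP, SFR1 and RAD51B lie above 0, those of NBN, MUS81 and RAD54L2 lie below 0, and all 37 lie between -1 and 1.

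Group means were also set against the scatter of the control arrays. In 15 of the 37 repair genes (40.5%) the arrays did not overlap between groups, 10 higher and 5 lower in shRB, beside 36.0% of all genes, of which 20.6% were higher and 15.4% lower. Without shControl replicate 2 it was 28 (75.7%, beside 66.9% of all genes), and without shControl replicate 1 it was 21 (56.8%, beside 68.3%). RAD51AP2, at the floor on both shControl arrays and on shRB replicate 2, is counted among the 15 and leaves 14 without it. The difference of means exceeded the gap between the shControl arrays in 16 (43.2%, or 15 genes without RAD51AP2), beside 43.7% of all genes, so neither share lay far from the background. The median gap between the shControl arrays was 0.18 for the repair genes and 0.22 for all genes. The gap was 0.65 for SMC5-DT, 0.64 for XRCC3, 0.60 for SMC6 and 0.59 for RAD52, all above the largest group difference of any repair gene. Without shControl replicate 1 or 2 in turn, the difference was 0.24 and -0.36 for SMC6, 0.27 and -0.38 for SMC5-DT and 0.09 and -0.29 for TP53BP1. UBE2T, MRE11, RAD50 and SLX4IP had gaps of 0.09, 0.11, 0.07 and 0.18.

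**Figure D4:**
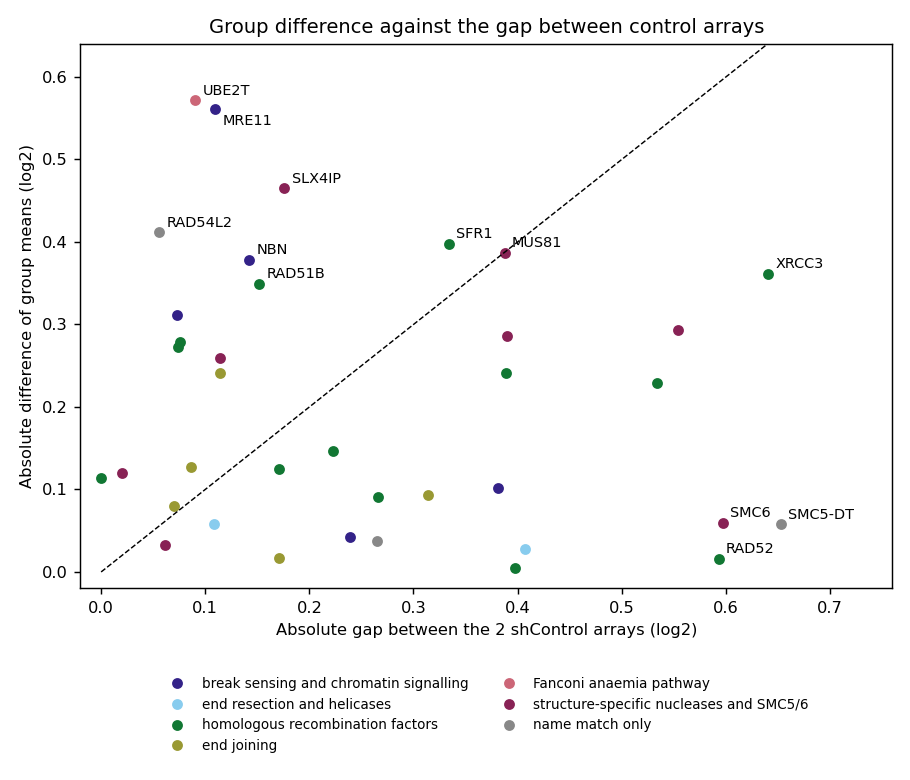
Absolute difference of the group means (vertical axis, log2) against the absolute gap between the 2 shControl arrays (horizontal axis, log2) for the 37 repair genes, coloured by role. The dashed line marks equality, with 16 genes above it. UBE2T and MRE11 have the largest differences and gaps near 0.1, and MUS81 lies just below the line.

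The 95% interval of all 37 differences lay within -1 and 1 on the deposited log2 scale, and that of 18 within -0.5 and 0.5. A p that missed the threshold does not show equal levels, and the standard errors ranged from 0.14 to 0.20. The deposited intensities have a floor of 16, and fold changes of dim genes are compressed if this is an added constant. With 16 taken off, the ratio of mean shRB to mean shControl intensity was 1.52 for UBE2T, 1.64 for MRE11, 1.54 for SLX4IP, 1.66 for SFR1, 1.58 for RAD51B, 0.76 for NBN, 0.72 for RAD54L2 and 0.68 for MUS81. With 16 taken off and 4 added before the logarithm, 26 of the 37 intervals lay within -1 and 1.

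Head-to-head neighbours, whose starts lie within 1000 bases on opposite strands, were measured for 11 of the 37 genes. ANKRD49, which starts 140 bases from MRE11, stood at 0.73 (limma adjusted p = 0.189). MRPL27, a mitochondrial ribosomal protein gene 45 bases from EME1, stood at 0.50 (limma adjusted p = 0.192), and DNASE1, next to SLX4, at 0.48 (limma adjusted p = 0.281). These 3 pairs had positive differences on both sides, although EME1 stood at 0.02 without shControl replicate 2. Differences were negative on both sides for SMC5 and SMC5-DT (-0.03 and -0.06) and for XRCC4 and TMEM167A (-0.02 and -0.25). SMC5-DT and XRCC4 had another sign in at least 1 alternative fit, as did XRCC6, TP53BP1 and SMC6 of the pairs below. For XRCC6 and TP53BP1 the neighbours differed in sign from the repair gene. DESI1, 252 bases from XRCC6, stood at 0.72 (limma adjusted p = 0.0504) where XRCC6 stood at -0.08, and MAP1A at 0.53 (limma adjusted p = 0.137) where TP53BP1 stood at -0.10. GEN1 and SMC6, whose overlapping promoters hold the same E2F word, stood at 0.29 and -0.06, and PALB2 and its neighbour DCTN5 at 0.24 and -0.14.

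Partners of these pathways that the symbol rule leaves out gave the surrounding picture. Of 78 such genes listed, 45 were measured, and 0 passed limma's test over all genes. Differences were positive in 30 of the 45 and negative in 15, beside 53.8% positive of all genes. The median was 0.09, beside 0.02 over all genes. At an unadjusted limma p under 0.05, 7 of the 45 were higher and 1 lower, beside 10.9% and 7.22% of all genes. The nuclease DCLRE1B (0.54), the checkpoint kinase ATR (0.53) and the chromatin mediator MDC1 (0.46) stood highest, with limma adjusted p-values of 0.107, 0.112 and 0.145. TDP2 (-0.45), which frees ends blocked by topoisomerase, the nuclease FAN1 (-0.25) and BABAM1 (-0.23) stood lowest, with limma adjusted p-values of 0.144, 0.487 and 0.463.

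Many recombination genes follow the cell cycle, and proliferation markers were therefore read beside them. Of 30 listed, 29 were measured and 0 passed limma's test, with 3 higher and 2 lower at an unadjusted p under 0.05, beside 10.9% and 7.22% of all genes. The median difference was -0.01, with 14 positive and 15 negative values. Cyclin E1, CCNE1, stood at 0.53, GINS2 at 0.47 and the helicase subunit MCM4 at 0.44, and cyclin A2, CCNA2, at -0.40, CDC6 at -0.35 and RRM2 at -0.24 (limma adjusted p from 0.112 to 0.436). The part of proliferation in the repair gene values was not tested.

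The array medians of the deposited intensities ranged from 26.7 to 28.1, and arrays correlated over all genes at r = 0.983 to 0.986 within shRB, at r = 0.967 within shControl and at r = 0.955 to 0.970 between groups. The shControl arrays were thus no more alike than some pairs from different groups. Of 11 markers of LNCaP and luminal prostate cells, 6 were measured, with mean log2 intensities of 6.33 to 10.13 in shControl and 0 past limma's threshold. Among them KLK3 stood at 10.13 in shControl and 10.08 in shRB. Of 17 markers of basal, stromal, blood and endothelial cells, 7 were measured, and the group means of DCN, LUM, KDR and LYZ were at most 4.73, below the median probe set at 4.76. The basal keratins lay above it, KRT5 at 5.15 in shControl and 5.34 in shRB and KRT14 at 4.81 and 4.86. VWF stood at 6.26 in shControl and 5.61 in shRB (limma adjusted p = 0.163), and the part of these markers in the results was not tested.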

How the data were processed

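Single-colour whole-transcript arrays of 5 irradiated LNCaP samples were analysed. The authors deposited linear intensities per probe set. How they were summarised and normalized, and on which build, is not given in the sources used here. Of 44607 probe sets, 15835 named 1 gene and the other 28772 did not. Symbols were updated by Entrez identifier through the RefSeq gene table of GRCh38.p14, and all 15835 matched. Each gene was read from its brightest probe set (mean log2 over arrays), giving 14812 genes, with dim genes kept. Intensities were log2-transformed and groups compared in R 4.3.3 by limma 3.58.1 (lmFit, then eBayes, two-sided, no covariates, Benjamini-Hochberg over all 14812 genes, threshold 0.05). Precision is limited by the number of arrays. The fit was tested on simulated data, 10 simulations with 200 of 14812 genes changed. It called 25.2% of genes changed by 0.5 (log2), 98% of those changed by 1, and a mean of 11.3 unchanged genes.

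The members and gene lists were chosen with earlier results of these data known. Values per array are given for repair genes with an unadjusted p under 0.05. Of the others and of the pathway partners, the 3 largest positive and negative differences per list were named. Per-array values of further members, head-to-head neighbours, the 3 E2F, TTTGAA and CCAAT motifs and the proliferation and cell type genes named were chosen after their values were seen. Full names in the rule without a probe set naming 1 gene numbered 9 (RNF8, RNF168, RBBP8, BLM, WRN, HELQ, PRKDC, NHEJ1 and POLQ) and are not analysed here. BRCA1, BRCA2, RAD51D, FANCD2 and FANCI, whose symbols fit the rule, were likewise not among the genes tested. Alternatives were removal of 16, filters on dim genes, quantile normalization, centring on array medians, the mean of probe sets, an intensity trend, a replicate block, array weights, all probe sets and each array left out.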

Additional observations from a re-analysis of the deposited data

How the results depend on the processing

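The count of repair genes past the threshold was 0 in 13 of 15 alternatives. It was 1 with an intensity trend and robust variances (UBE2T), and 2 with genes below the median gene left out (UBE2T and MRE11), a filter chosen after seeing the data. Among the 8 repair genes with an unadjusted p under 0.05, each kept its sign in every alternative that tested it (SFR1 and RAD51B lay below the median gene and were not tested there). Of all 37, 23 kept their sign in each alternative that tested them (8 of the 37 were left out by 1 or both filters on dim genes, and were tested in 13 or 14), and the 14 that did not had differences between -0.12 and 0.23. UBE2T, MRE11 and SLX4IP had an unadjusted p under 0.05 in every alternative, and NBN, MUS81, SFR1, RAD51B and RAD54L2 did not.

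The number of repair genes with an unadjusted p under 0.05, 8 in the reported fit, was 5 with 16 subtracted and 4 added, 4 with array weights and 3 with the replicate block, and ranged from 3 to 8 without 1 array. It was 5, 4 and 3 without shRB replicate 1, 2 or 3. The shares of all genes at an unadjusted p under 0.05 in these alternatives are not given here. The number with arrays that do not overlap ranged from 17 to 28 without 1 array, and was 28 without shControl replicate 2. The share of all genes without overlap, 36.0% in the reported fit, also rose, to 66.9% there, beside 75.7% of the repair genes. Without shControl replicate 1 the share of all genes was 68.3%, beside 56.8%. Without shRB replicate 1, 2 or 3 it was 46.8%, 45.7% and 44.0%, beside 48.6%, 51.4% and 45.9%. The median difference of the repair genes ranged from -0.03 to 0.02 without 1 array and was 0.02 with the replicate block. Over all genes, 159 passed (103 higher, 56 lower). With 16 subtracted and 4 added 13 passed (4 higher, 9 lower), with the dim genes left out 288, with genes below the median gene left out 385, with the intensity trend 426, with array weights 88 and with the replicate block 24 (8 higher, 16 lower). Without 1 array between 22 and 411 passed. Without shControl replicate 1 or 2 the lone control array was assumed to vary like the shRB arrays. Deviations of arrays with the same number correlated at -0.02 and 0.05, so the numbers were not taken as pairs. The cause of these movements was not tested.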
